A study of Mus musculus with 7 samples.

Results

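The tripartite motif (TRIM) genes code for proteins built from a RING finger, 1 or more B-boxes and a coiled coil, most of which act as ubiquitin ligases. The members described here are all genes of the deposited table whose symbol is Trim followed by a number, except Trim63, which the choice of members left out. This gave 62 members of 23930 genes. The rule reads gene symbols and no measured value, but the family was picked with earlier results of these data known.

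A RING finger brings together a substrate and an E2 enzyme that carries activated ubiquitin, and the domain at the C-terminal end decides which substrate is bound. The largest class ends in a PRY-SPRY domain and includes genes that interferon induces and that act on viral RNA sensors, their adaptors or viral capsids. Other classes end in a PHD finger and a bromodomain and repress or activate transcription in the nucleus, carry NHL repeats, bind microtubules through a COS box, or sit in the membrane of the endoplasmic reticulum. In striated muscle the family is best known for the MuRF ligases of the sarcomere and for Trim72, a protein of membrane repair.

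Bulk libraries were made from sorted Pax7-GFP cells, 3 in normocapnia, called NC1, NC2 and NC3, and 4 in hypercapnia, called HC1, HC2, HC3 and HC4, and the comparison asks which genes differ after chronic exposure to raised CO2. By the labels the mice were littermates, of the strain C57/B6, with an inducible Pax7-GFP reporter, while the methods give controls of the same genotype matched for age and sex. The genotype label counts upward from C57BL/6 in NC1 to C57BL/12 in HC4, which was not taken as a difference between the libraries. By the methods, a tamoxifen-dependent Cre recombinase is driven from the Pax7 locus, so GFP marks satellite cells, the stem cells of muscle, and their progeny. Mice of both groups entered the study at 12 weeks of age, received tamoxifen, spent 4 weeks in room air or in a chamber with 10% CO2, and were collected at 16 weeks. The methods add that 2 muscles of the leg had been injured with cardiotoxin, a toxin that destroys myofibers, 3 days before sorting. The title of the deposited table names 40 hours, which the methods use only for cells in culture. The labels name neither the injury nor a time. They also do not say whether libraries came from separate animals, so p-values rest on the spread between these libraries. Values are RPM, that is, reads scaled to the same total in every library, from a targeted panel with 1 amplicon per gene. Amplicons differ in yield, so RPM was compared between libraries and not between genes.

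The libraries held 14527445 to 23388710 reads, and 3 reads, taken as the floor, were worth 0.128 to 0.207 RPM. Xist, the RNA of the inactive X chromosome, was read at 445 to 701 RPM in NC1, NC2, HC1 and HC2 and at 0 to 0.125 RPM in NC3, HC3 and HC4. Both groups thus mix libraries with and without it, and differences within each kind are given below for a part of the genes. NC3 stood apart: it was the lowest of the 7 libraries for 48.9% of the 12504 genes averaging 1 RPM or more. Over these genes log2(RPM + 1) correlated at 0.993 between HC1 and HC2 and at 0.955 between HC3 and HC4. Across these pairs the correlation was 0.925 to 0.945, and within normocapnia it was 0.827 to 0.887. HC1 and HC2 were thus nearly alike, while n = 4 counts each hypercapnia library as separate. Summed over 10 satellite cell markers, RPM was 597 to 4024 in normocapnia and 777 to 1609 in hypercapnia, and none of the 10 was at 0 in all libraries. Sdc4 alone gave 441 to 781 RPM of this in normocapnia and 429 to 450 RPM in hypercapnia, so the sums understate how the other markers varied. Pax7 itself was read at 268 RPM in NC1, 8.25 RPM in NC2, 4.34 RPM in NC3 and 20.1 to 79.5 RPM in hypercapnia, so the marker of the sorted cells varied more within normocapnia than between the groups. The 10 macrophage markers summed to 12070 to 34640 RPM in normocapnia and 19730 to 24640 RPM in hypercapnia, and none was at 0 in all libraries. Lyz2 alone gave 8354 to 29108 RPM of this in normocapnia and 13410 to 16728 RPM in hypercapnia. Of the 9 macrophage markers averaging 1 RPM or more, 6 were higher in hypercapnia and 3 lower. Adgre1 and Ms4a7 were called higher, where 2.66% of all genes averaging 1 RPM or more were. Markers of endothelial cells reached 374 RPM in HC4 and 481 RPM in HC3, against 43.0 to 208 RPM in the others. Many TRIM genes are active in all of these cell types, and the part of these cells in the differences below was not tested. In such bulk RNA, fewer cells of a type and less RNA per cell cannot be told apart.

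The promoters of the innate immune members are shown first, because several of them share a short sequence that bears on how such genes are switched on. The motif searched, on both strands, was 2 copies of GAAA separated by any 2 bases, which reads as 2 copies of TTTC where it lies on the strand opposite to the gene. This is the core of the element that interferon-activated factors of the STAT and IRF families bind. The search covered 32851 RefSeq windows of 300 bases, from 250 bases before a start to 50 bases from it on, in the build GRCm38.p6. The motif was found in 3.44% of all windows, and 3.99% of the 27025 genes had it in at least 1 window. Windows were given for 47 of the 62 members, of which 9 had it. By list, these were 8 of the 15 innate immune members with a window and 1 of 32 other members. These 15 include Trim31 and Trim38, read at a mean under 1 RPM, and are not the same 15 as in the comparison of levels below. Trim5, Trim12a and Trim12c had nearly the same stretch, as had Trim30a and Trim30d, so the 8 do not count as independent. The 10 sequences below, each 30 bases of the gene's own strand, carry the match in capitals.

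Trim21: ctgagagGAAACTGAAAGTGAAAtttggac
Trim26: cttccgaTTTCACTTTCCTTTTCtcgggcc
Trim34a: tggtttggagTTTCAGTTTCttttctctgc
Trim30d: agttctttagTTTCTTTTTCtcagttcctg
Trim30a, distal start: agttctttagTTTCTTTTTCtcagttcctg
Trim30a, proximal start: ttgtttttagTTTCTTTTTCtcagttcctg
Trim5: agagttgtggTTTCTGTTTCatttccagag
Trim12a: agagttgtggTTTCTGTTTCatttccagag
Trim12c: agagttgtggTTTCTGTTTCatttccagct
Trim2: tcagctttggTTTCCTTTTCtctaagacag

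The stretch of Trim21 lay at chr7:102565447-102565476 on the minus strand, and its match spanned bases 14 to 29 counted from the start as base 1. The stretch of Trim26 lay at chr17:36836979-36837008 on the plus strand, with its match at bases -160 to -145. Both held 2 overlapping matches. Trim34a was read at chr7:104244457-104244486 on the plus strand. The minus strand held Trim30d at chr7:104507871-104507900, Trim30a at chr7:104465210-104465239 for the distal and chr7:104446104-104446133 for the proximal start, Trim5 at chr7:104288136-104288165, Trim12a at chr7:104315466-104315495, Trim12c at chr7:104353359-104353388 and Trim2 at chr3:84212791-84212820. Trim30d and the distal start of Trim30a shared the same 30 bases, as did Trim5 and Trim12a, so 8 of the 10 sequences were distinct. A longer form, in which the second GAAA is followed by CT and which contains the first form, was found in 0.303% of all genes with a window and in 3 of the 47 members, Trim30a, Trim30d and Trim34a. Trim30c, described next, had neither form in its window, but held TTCNNNGAA, the spaced palindrome bound by STAT dimers, which was found in 9.55% of all genes with a window and in 6 of the 47 members, 3 of 15 on the innate immune list and 3 of 32 others. A match is a description of the letters and not a site.

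Of the 62 members, 38 were read at a mean of 1 RPM or more, 26 at 10 RPM or more and 3 at 100 RPM or more. Following the thresholds of the study, a gene counted as called where limma on log2(RPM + 1) put it over a fold of 1.5 at a p under 0.05 before adjustment. By this rule 4 members were called, of which Trim21, Trim30c and Trim6 were higher in hypercapnia and Trim13 was lower. Across all genes 2.57% were called (1.43% higher and 1.14% lower), and 4.75% of genes averaging 1 RPM or more (2.66% higher and 2.1% lower), beside 6.45% of the 62 members and 10.5% of the 38. With 4 genes these shares rest on few members. No member, and no gene of the table, passed limma's test with Benjamini-Hochberg adjustment at 0.05, while 5 members and 1114 genes had an unadjusted p under 0.05 (4.66% of all genes). No member passed after adjustment with edgeR or DESeq2 on the recovered reads either, where 0 and 29 genes of the table passed (0.121% of all genes for the latter). Before adjustment edgeR with a filter called 4 members and 6.03% of genes, and DESeq2 5 members and 5.45% of genes. Of the 38 members, 26 were higher in hypercapnia and 12 lower (68.4% against 62.1% of all genes at this level), with a median log2 fold change of 0.24 against 0.16. Another scaling moved the median of all these genes from 0.16 with RPM to 0.05 (median-of-ratios) or -0.01 (quantile), and that of the members from 0.24 to 0.15 or 0.05. With DESeq2, which also changes the model and uses no pseudocount, the medians were -0.04 and 0.04.

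**Figure D1:**
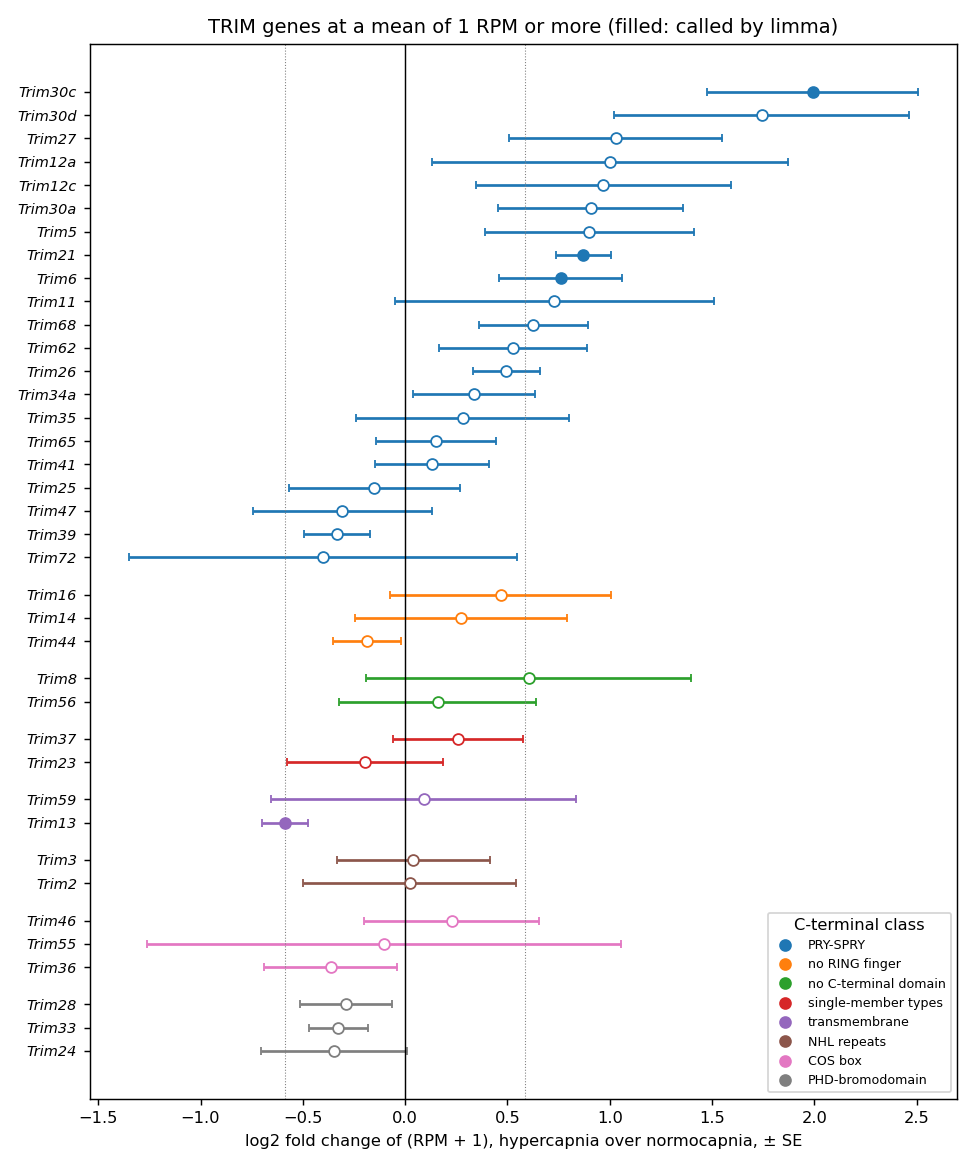
Log2 fold change of RPM + 1 in hypercapnia over normocapnia (x axis, ± SE from limma) for the 38 TRIM genes averaging 1 RPM or more, grouped and colored by the class of the C-terminal end. Filled points are the 4 called genes, and dotted lines mark a fold of 1.5. The PRY-SPRY genes reach from -0.40 to 1.99, whereas all 3 PHD-bromodomain genes lie below 0.

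Of the members with a role in innate immunity most were higher in hypercapnia, 3 of them called. Of 19 such genes listed, 17 were in the table and 15 were read at a mean of 1 RPM or more. Of these, 14 were higher in hypercapnia and 1, Trim25, was lower, and the median log2 fold change was 0.76, though Trim34a changed sign with quantile normalization (-0.12), Trim56 with edgeR on unfiltered reads and with DESeq2, and Trim65 with DESeq2. The other 23 members at this level were split into 12 higher and 11 lower with a median of 0.02. All 3 members called higher were on the innate immune list. In 4 of the 15 no hypercapnia library overlapped a normocapnia library, all 4 with hypercapnia above, whereas 4.09% of all genes at this level were apart in that direction. Without NC3, the median of the innate immune genes was 0.44, with 11 higher and 4 lower, and that of all 38 members was -0.09, with 16 higher and 22 lower. Over all genes at this level the median without NC3 was -0.07, and 43.4% were higher. The list was written with earlier results of these data known and is no independent evidence of its direction.

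Trim21 is a cytosolic receptor for antibody that sends antibody-bound virus to the proteasome. Its level was 8.61, 8.89 and 7.85 RPM in the normocapnia libraries and 17.6, 19.4, 15.4 and 13.2 RPM in those of hypercapnia, listed here and below in the order of their numbers. All 4 hypercapnia libraries lay above all 3 normocapnia libraries, and the normocapnia libraries lay close together, NC3 included. The mean was 8.45 ± 0.541 RPM (SD, n = 3) in normocapnia and 16.4 ± 2.71 RPM (SD, n = 4) in hypercapnia, a ratio of 1.94. The log2 fold change was 0.87 ± 0.14 (SE, limma, adjusted p = 0.564). It was 1.001 among the libraries with Xist and 0.79 among those without. The call was lost with quantile normalization (0.64) and, just short of the threshold, with edgeR on unfiltered reads (0.87).

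Trim30c is a mouse gene of the Trim30 group, whose best studied member restrains Toll-like receptor signaling. It was read at 4.64, 10.6 and 2.62 RPM in the normocapnia libraries and at 30.4, 37.7, 15.4 and 17.3 RPM in those of hypercapnia, again without overlap. HC1 and HC2, the hypercapnia libraries with Xist, lay above HC3 and HC4, which in turn lay above NC2. The mean rose from 5.95 ± 4.15 (SD, n = 3) to 25.2 ± 10.6 RPM (SD, n = 4), a ratio of 4.24. The log2 fold change was 1.99 ± 0.52 (SE, limma, adjusted p = 0.828), the largest among the 38 members. It was 2.11 among the libraries with Xist and 2.26 among those without, and Trim30c was called under all 18 alternatives, at 1.46 to 2.45.

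Trim30d, of the same group, was read at 6.87, 12.1 and 1.17 RPM in normocapnia and at 31.0, 27.7, 12.9 and 12.5 RPM in hypercapnia. The groups did not overlap, but NC2 lay just below HC4, and NC3 was far below the other normocapnia libraries. On the log2 scale the difference was 1.74 ± 0.72 (SE, limma, adjusted p = 0.915), with an unadjusted p just over the threshold. Trim30d passed it under 9 of the 18 alternatives, edgeR and DESeq2 among them, and its log2 fold change without NC3 was 1.0. Among the libraries with Xist the difference was 1.58, and among those without it was 2.65. Trim30a, the member of the group that acts on TAB2 and TAB3 below Toll-like receptors, was read at 45.3, 87.6 and 136 RPM in normocapnia and at 209, 197, 131 and 103 RPM in hypercapnia. NC3, low for most members, was here the highest of its group and lay above HC3 and HC4. For Trim30a the log2 fold change was 0.91 ± 0.45 (SE), with 1.67 among the libraries with Xist and -0.22 among those without, and it was called without NC3.

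**Figure D2:**
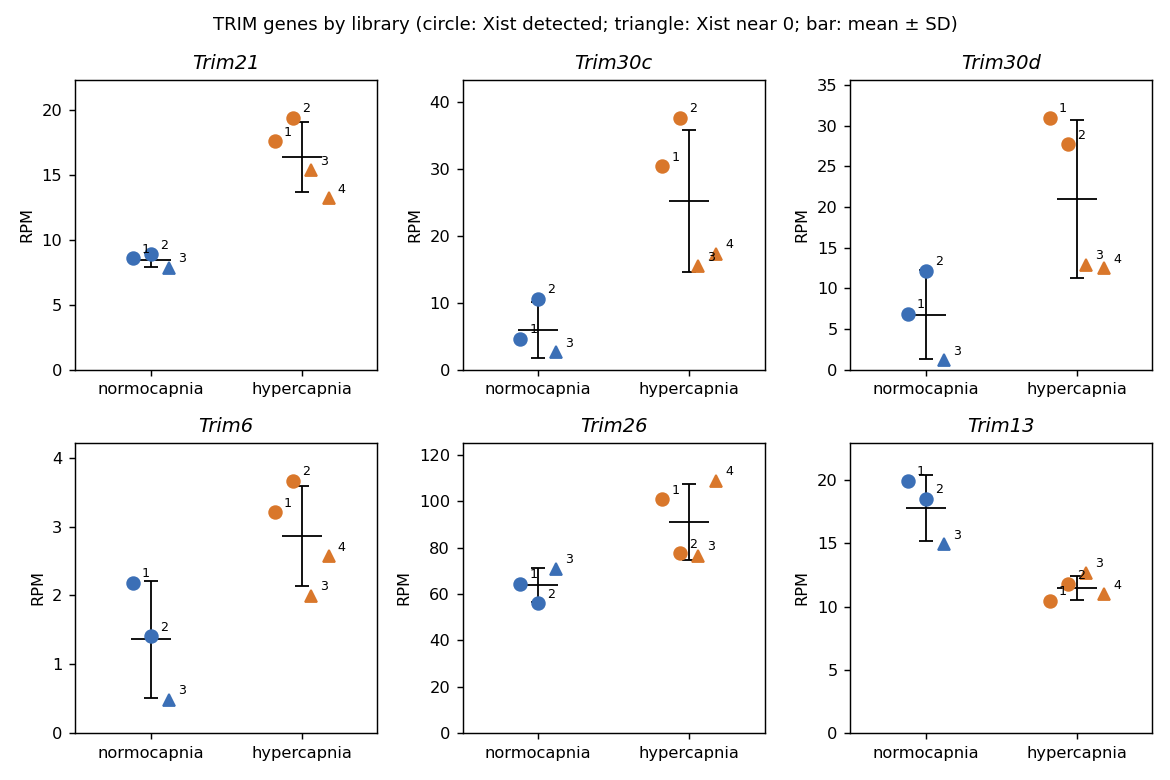
RPM (y axis, from 0) in each library for 6 TRIM genes, with normocapnia in blue and hypercapnia in orange and the replicate number beside each point. Circles are libraries with Xist, triangles those without, and black bars show the mean ± SD (n = 3 and n = 4). The groups do not overlap for Trim21, Trim30c, Trim30d and Trim26, where hypercapnia is higher, and for Trim13, where it is lower; they overlap for Trim6.

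Trim6 makes unanchored ubiquitin chains that activate the kinase IKK-epsilon. It was read at 2.19, 1.41 and 0.482 RPM in the normocapnia libraries and at 3.21, 3.67, 1.999 and 2.57 RPM in those of hypercapnia, so that HC3 lay below NC1. These values rest on 7 to 75 reads per library. This gave a log2 fold change of 0.76 ± 0.30 (SE, limma, adjusted p = 0.915), just inside the threshold, and the call was lost in 12 of the 18 alternatives. It was 0.68 among the libraries with Xist and 1.14 among those without. Trim26, which acts on the transcription factor IRF3, was read at 64.5, 56.1 and 70.9 RPM in normocapnia and at 101, 77.7, 76.5 and 109 RPM in hypercapnia. The groups did not overlap, with the nearest libraries being NC3 and HC3. Its log2 fold change of 0.50 ± 0.16 (SE, limma, adjusted p = 0.915) was below the fold required, and Trim26 was not called under any alternative.

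Trim25, Trim65, Trim14 and Trim56, also on the innate immune list, were not called. Trim25, the ligase that activates the sensor RIG-I, was read at 40.2, 110 and 55.4 RPM in normocapnia and at 54.3, 85.7, 53.4 and 40.6 RPM in hypercapnia. All 4 hypercapnia libraries lay inside the normocapnia range, with NC2 above them all, and the log2 fold change was -0.15 ± 0.42 (SE). Trim65, which ubiquitinates the sensor MDA5, averaged 36.9 ± 14.5 RPM (SD, n = 3) and 39.7 ± 8.00 RPM (SD, n = 4). For Trim14, an adaptor at the mitochondrial protein MAVS, NC2, HC1 and HC2 held 32.2 to 38.8 RPM and the other 4 libraries 12.3 to 15.8 RPM, so the levels divided across the groups rather than between them. Trim56, linked to the DNA-sensing pathway of STING, was read at a mean of 1.73 ± 1.54 RPM (SD, n = 3) and 1.71 ± 0.564 RPM (SD, n = 4). None of these 4 differences passed the test, which does not show that the levels were alike.

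On chromosome 7 the order of genes in GRCm38.p6 runs from Trim6 to Trim30d over 11 genes, of which 10 are TRIM genes and 8 of these are in the table. All 8 averaged 1 RPM or more and all 8 were higher in hypercapnia, Trim34a except with quantile normalization, with a median log2 fold change of 0.94. Of these 8, Trim6 and Trim30c were called and Trim30c and Trim30d were without overlap, where over all genes averaging 1 RPM or more 2.66% were called higher and 4.09% were apart with hypercapnia higher. Outside the run, chromosome 7 carries another 7 members, of which 5 averaged 1 RPM or more. These were divided, with Trim21 (0.87), Trim68 (0.63) and Trim3 (0.04) higher and Trim28 (-0.29) and Trim72 (-0.40) lower, so that 11 of the 13 members of the chromosome at this level were higher, with a median of 0.87. The run was picked out after the values had been seen, so that no test was made of it. Without NC3 all 8 genes of the run were still higher, with a median of 0.48. Among the libraries with Xist all 8 were higher (median 0.97), and among those without it 7 were, Trim30a being the exception (median 1.44). Over all genes at this level, 36.7% were higher among the libraries with Xist (median -0.17) and 73.4% among those without (median 0.76). NC3 was the lowest library for 7 of the 8.

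**Figure D3:**
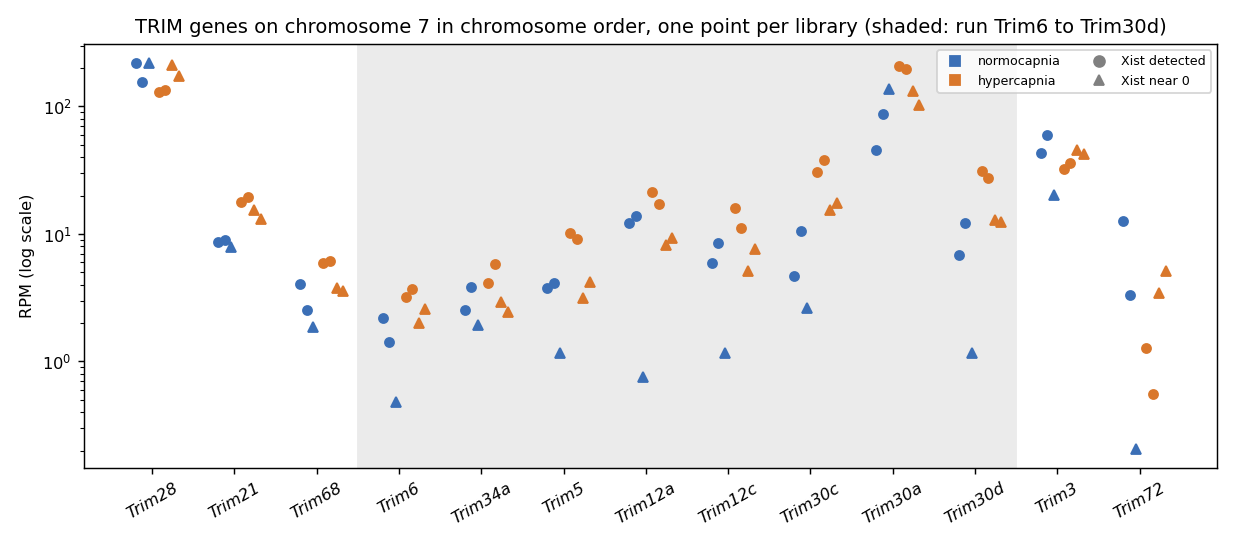
RPM (y axis, log scale) in each library for the 13 TRIM genes of chromosome 7 that averaged 1 RPM or more, in chromosome order (x axis, not to scale), with normocapnia in blue, hypercapnia in orange, circles for libraries with Xist and triangles for those without. In the shaded run of 8 genes HC1 and HC2 are the highest libraries throughout, which also holds for Trim21 and Trim68 but not for Trim28, Trim3 and Trim72. The share of all genes with HC1 and HC2 highest was not counted, and these libraries were the closest pair over all genes averaging 1 RPM or more (correlation 0.993).

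The other genes of the run, and Trim68, had wide spreads. Trim12a was read at 12.3 and 13.7 RPM in NC1 and NC2, at 0.757 RPM in NC3 and at 8.19 to 21.5 RPM in hypercapnia, so its log2 fold change of 1.001 ± 0.87 (SE) rested on NC3 and was 0.003 without it. Trim12c was read at 5.89, 8.42 and 1.17 RPM in normocapnia and 5.12 to 15.9 RPM in hypercapnia, and Trim5, related to the factor that restricts retroviral capsids in primates, at 3.79, 4.15 and 1.17 RPM and at 3.12 to 10.2 RPM. For both, HC3 lay below NC1. Trim68 was read at 1.86 to 4.01 RPM in normocapnia and 3.59 to 6.08 RPM in hypercapnia, and Trim34a at 1.93 to 3.85 RPM and 2.44 to 5.83 RPM. None of these 5 was called. With Xist as a covariate Trim5, Trim12a, Trim12c, Trim30d and Trim68 passed the test in addition to the 3 members called higher, in a fit that called 5.5% of all genes.

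Some of these genes are near copies of each other, and reads of an amplicon in a shared stretch could belong to either. In the longest protein-coding transcripts of GENCODE M21, Trim30a and Trim30d shared an identical run of 275 bases, Trim5 and Trim12c one of 236 bases and Trim5 and Trim12a one of 172 bases. Trim34a shared 221 bases with Trim34b, which was not analysed here. Trim30c shared no more than 58 bases with Trim30d and 42 with Trim30a. The position of the amplicons is not in the sources used here, so that the values of Trim5, Trim12a, Trim12c, Trim30a, Trim30d and Trim34a are uncertain in how reads were divided.

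Trim13 was the member called lower. It is anchored in the membrane of the endoplasmic reticulum and takes part in the degradation of its proteins and in autophagy of that compartment. Its level was 19.9, 18.5 and 14.9 RPM in the normocapnia libraries and 10.4, 11.8, 12.7 and 11.0 RPM in those of hypercapnia. The groups did not overlap, and NC3 and HC3 came closest. Among all genes averaging 1 RPM or more, 7.72% were without overlap, 3.63% with hypercapnia lower, and of the 38 members 5 were, with Trim13 the 1 that was lower. The mean fell from 17.8 ± 2.58 (SD, n = 3) to 11.5 ± 0.976 RPM (SD, n = 4), a ratio of 0.644. The log2 fold change was -0.59 ± 0.11 (SE, limma, adjusted p = 0.65), which barely passed the fold of 1.5. Its direction held under all 18 alternatives (-0.47 to -0.80), but it was no longer called under 8 of them, among them those without NC1, NC2, HC1 or HC4. With 1 library left out, the share of all genes called was 8.32% without NC1, 5.04% without NC2, 2.57% without NC3, 1.61% without HC1, 1.57% without HC2, 2.39% without HC3 and 1.99% without HC4. For Trim13 the log2 fold change was -0.74 among the libraries with Xist and -0.32 among those without. Trim59, the other member with a membrane anchor, was read at 23.2, 2.22 and 8.60 RPM in normocapnia and 5.08 to 15.1 RPM in hypercapnia. That spread within normocapnia exceeded any difference between the groups (0.09 ± 0.75, SE).

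The transcriptional regulators of the TIF1 group had no called member. Trim28, the corepressor that KRAB zinc finger proteins recruit to silence transposons, was read at 218, 156 and 218 RPM in normocapnia and at 130, 134, 210 and 175 RPM in hypercapnia. HC1 and HC2 were the lowest, while HC3 and HC4 lay inside the normocapnia range, and the log2 fold change was -0.29 ± 0.22 (SE). Trim33, a regulator of Smad signaling, was read at 61.3, 60.6 and 48.4 RPM in normocapnia and at 40.7, 38.4, 50.9 and 50.7 RPM in hypercapnia. Its log2 fold change was -0.33 ± 0.15 (SE), with -0.61 among the libraries with Xist and 0.07 among those without. Trim24, a cofactor of nuclear receptors, was read at 88.6 RPM in NC3, far above the 39.6 and 41.3 RPM of NC2 and NC1, and at 32.1 to 53.1 RPM in hypercapnia. Trim66 was read at 0.428 to 1.03 RPM in normocapnia and 0.043 to 0.474 RPM in hypercapnia, from 1 to 23 reads. Of the partners of this group, such as the methyltransferase gene Setdb1 and the chromatin remodeler gene Chd4, 6 of 7 listed genes were in the table, 3 were higher and 3 lower, and 0 were called. The 3 with the smallest p were Chd4 (-0.34), Cbx1 (0.85) and Chd3 (0.80).

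The members known from muscle were read at low levels or unevenly. Trim72, the membrane repair protein, was read at 12.6, 3.29 and 0.207 RPM in the normocapnia libraries and 0.553 to 5.08 RPM in hypercapnia. Trim55, which codes for the sarcomere ligase MuRF2, was read at 22.6 RPM in NC1, 0.684 RPM in NC2 and 0 in NC3, and at 1.21 to 3.75 RPM in hypercapnia. The 5 myofiber markers summed to 2656, 716 and 184 RPM in the normocapnia libraries, the same order as for both genes, and to 217 to 1018 RPM in hypercapnia. Across the groups the order differed for Trim55, where NC2 lay below all hypercapnia libraries. The part of myofiber RNA in these values was not tested. Trim54, which codes for MuRF3, was read at 0.151 to 1.45 RPM. Trim32, the ligase whose loss causes a limb-girdle muscular dystrophy, was at 0 in 5 libraries and at 1 read in NC3 and in HC2, below the floor in all 7. Neither of the muscle genes averaging 1 RPM or more was called (-0.40 ± 0.95 for Trim72 and -0.10 ± 1.16 for Trim55, both SE). Their direction differed between libraries with and without Xist, at -2.02 and 2.11 for Trim72 and -1.38 and 2.06 for Trim55.

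The NHL group, which binds RNA or cargo of motor proteins, held Trim2 and Trim3 at a mean of 1 RPM or more. Trim3 was read at 43.1, 59.2 and 20.3 RPM in normocapnia and 32.4 to 45.1 RPM in hypercapnia, and Trim2 at 9.41, 1.80 and 1.93 RPM and at 2.78 to 4.998 RPM. Both log2 fold changes were near 0, at 0.04 ± 0.37 and 0.02 ± 0.52 (SE), and their sign depended on the scaling. Trim71, known from early embryos, was read at 3 reads in NC1 and at 0 in all others.

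Trim8 and Trim41 complete the members with the highest RPM. Trim8, a regulator of cytokine signaling through SOCS1, was read at 257 and 251 RPM in NC1 and NC2, at 31.1 RPM in NC3 and at 191, 191, 191 and 201 RPM in the hypercapnia libraries. The hypercapnia libraries lay close together, below NC1 and NC2 but above NC3. The log2 fold change was therefore 0.60 ± 0.79 (SE) over all libraries and -0.39 without NC3. It was -0.41 among the libraries with Xist and 2.62 among those without. Trim41 was read at 60.8, 104 and 46.9 RPM in normocapnia and 65.0 to 81.5 RPM in hypercapnia. The same pattern, with NC3 lowest, held for 27 of the 38 members (71.1%, against 48.9% of all genes at this level). Among the libraries with Xist 18 of the 38 were higher in hypercapnia (median -0.10), and among those without Xist 31 were (median 0.74), beside 36.7% and 73.4% of all genes at this level (medians -0.17 and 0.76). By list, 12 of the 15 innate immune members and 3 of the 23 others were higher in both comparisons, against 27.6% of all genes.

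In the PRY-SPRY class as a whole 31 genes were in the table, 21 averaged 1 RPM or more, and of these 17 were higher and 4 lower. Its members outside the innate immune list, Trim11, Trim27, Trim35, Trim39, Trim41, Trim47, Trim62 and Trim72, ran from -0.40 to 1.03 on the log2 fold change scale. Trim27, at the upper end, was read at 67.8, 21.5 and 15.3 RPM in normocapnia and 50.1 to 72.0 RPM in hypercapnia, so NC1 lay inside the hypercapnia range. Trim16, Trim23, Trim37 and Trim46, of other classes, ran from -0.20 to 0.47. None of these 12 was called. In the remaining classes there was no called member either. The smallest p belonged to Trim36 in the microtubule-binding COS class (-0.36), to Trim44 among members without a RING finger (-0.19), to Trim52 among members without a C-terminal domain (0.60) and to Trim45 among the types with a single member (-0.21). Without NC1 the value of Trim44 was -0.007, and without HC4 that of Trim52 was 0.12. Trim45 and Trim52 were read at a mean under 1 RPM. In all, 24 members lay under that mean, 5 of them at 0 in every library, Trim15, Trim42, Trim43b, Trim58 and the pseudogene Trim30e-ps1. Of the other 19, 8 exceeded 3 reads in at least 1 library, and the highest value was 3.45 RPM, for Trim52 in HC4.

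**Figure D4:**
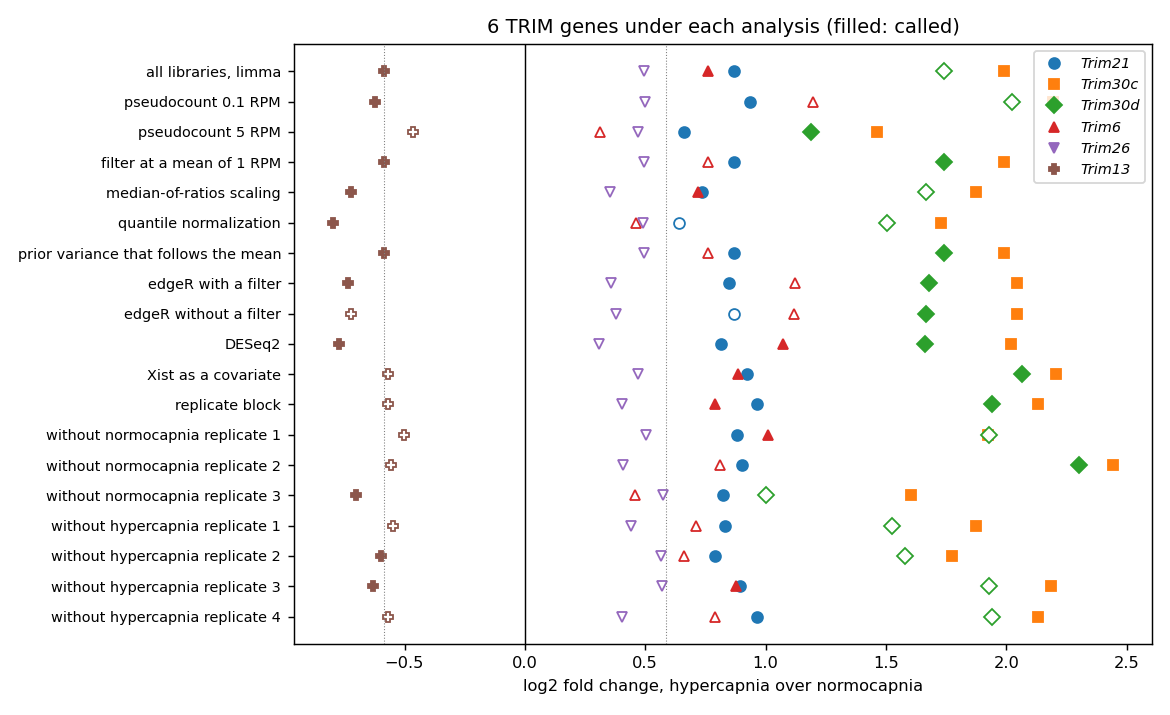
Log2 fold change in hypercapnia over normocapnia (x axis) of 6 TRIM genes for the fit with all libraries and for each of the 18 alternatives (rows). Filled symbols are called, open symbols are not, and dotted lines mark a fold of 1.5. Trim30c is filled in all rows, Trim21 in all but 2, and Trim26 in none.

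Genes that work with the innate immune members are given for comparison. Of 15 genes listed for the response to interferon, 12 were in the table, 10 were higher in hypercapnia and 2 lower, with a median log2 fold change of 0.85, and 4 were called higher. Over all genes averaging 1 RPM or more, 62.1% were higher and 2.66% were called higher. Ifit1, an RNA-binding antiviral gene, was read at 9.95, 10.5 and 8.40 RPM in normocapnia and 63.2, 57.7, 37.5 and 23.0 RPM in hypercapnia (2.03 ± 0.37, SE). The order of the hypercapnia libraries was close to that of Trim21, with HC4 lowest and HC1 and HC2 highest in both. Mx1 (1.70), Rsad2 (1.84) and Usp18 (1.47), which code for antiviral proteins and for the protease that removes ISG15, were the others. The receptor genes Ifnar1 and Ifnar2 were the 2 that were lower (-0.04 and -0.48), and neither was called. Of the macrophage markers called higher, Adgre1 was read at 70.5 to 149 RPM in normocapnia and 151 to 429 RPM in hypercapnia. Ms4a7 was read at 25.1 to 38.0 RPM and 57.8 to 162 RPM. For both, HC1 and HC2 were highest, as for Trim21, Trim30c and Ifit1, but the share of all genes with this order was not counted. Of the whole macrophage list 9 of 10 were at a mean of 1 RPM or more, 6 of them higher and 3 lower, and the part of macrophage RNA in the TRIM differences was not tested.

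Among 15 genes for the sensors, adaptors and kinases on which TRIM ligases act, 10 were higher and 5 lower, with a median of 0.55, and 0 were called. Tab3 (-0.43), Tmem173, the gene of STING (0.37), and Traf6 (-0.41) had the smallest p, all short of the fold of 1.5. Tab3 was read at 18.7 to 24.7 RPM in normocapnia and 14.2 to 16.1 RPM in hypercapnia, and Tmem173 at 122 to 130 RPM and 141 to 190 RPM, both without overlap. In all, 6 of the 15 were without overlap, where 7.72% of all genes averaging 1 RPM or more were. Ddx58, the gene of RIG-I (1.53), Mavs (0.95) and Tmem173 were higher in hypercapnia, and Traf6, Tab3 and Ikbkg (-0.37) were lower. Of 15 listed E1 and E2 enzymes, which hand ubiquitin to the ligases, 10 were in the table, with 6 higher, 4 lower and 0 called, and the smallest p was that of Ube2l6, the E2 enzyme of ISG15 (0.68), ahead of Ube2d1 (-0.79) and Ube2e3 (-0.56). TRIM proteins under other names were covered by 4 of 5 genes, none called, with Pml at 27.6 to 43.9 RPM in normocapnia and 41.5 to 76.4 RPM in hypercapnia (0.61), Mefv (0.86) and Rnf207, which was read in 1 library at 1 read.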

How the data were processed

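Per the labels, RNA of sorted Pax7-GFP cells was extracted with TRIzol, and AmpliSeq libraries were sequenced on an Ion S5. The authors deposited RPM for 23930 genes in 7 libraries and used the Transcriptome Analysis Console. Not given in the sources used here are the aligner and the build. Whole reads were recovered from RPM for 100% of values (tolerance 0.05 reads). The floor of 3 reads covers counting error only, while SDs measure the spread between libraries. SEs and p-values of limma also draw each gene's variance toward a value fitted over all genes, those under 1 RPM included. With a filter at 1 RPM, limma's unadjusted p went from 0.000908 to 0.0103 for Trim21, from 0.00269 to 0.0495 for Trim13 and from 0.0486 to 0.0584 for Trim6. That of Trim30c went from 0.00974 to 0.00364.

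Members and gene lists were chosen with earlier results of these data known. Differences were tested over all genes with limma 3.58.1 (R 4.3.3) on log2(RPM + 1). Named genes were all called members, the 5 with the highest mean RPM, the muscle, TIF1, NHL and membrane groups, innate immune members averaging 1 RPM or more, the smallest p in each class, and in the other lists the called genes or else up to 3 with the smallest p. Other genes were named after their values were seen. Alternatives were the pseudocount (0.1 or 5), quantile normalization, a filter at 1 RPM, a prior variance tied to the mean, median-of-ratios scaling, Xist as a covariate, the replicate number as a block, each library left out, and edgeR 4.0.16 and DESeq2 1.42.0 on whole reads. On simulated libraries with 200 genes changed 4-fold, limma called 100% at a dispersion of 0.02 and 65.5% at 0.4, and 99.5% and 0% after adjustment. At 0.4, edgeR called 79.5% and DESeq2 83.0%, and 3.0% and 31.5% after adjustment. Promoter sequences are from RefSeq.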

Additional observations from a re-analysis of the deposited data

Results flagged for a closer look

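In each group of 4 to 10 libraries, the highest or lowest value was set against the others by Dixon's test, which chance passes in about 1 of 20 groups. Of the 34 members that the naming rule chose, those with over 3 reads in a hypercapnia library were tested. This picked out HC4 for a pair of genes, not far from the rate that chance gives. Trim52 was read at 3.45 RPM in HC4 and at 0.125 to 0.300 RPM in HC1 to HC3. Trim8 was read at 201 RPM in HC4 and at 191 RPM in each of HC1 to HC3, a gap of a few percent that passed because these 3 libraries lay so close together. The normocapnia group, with 3 libraries, was too small to be tested.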

How the results depend on the processing

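Under 18 alternatives the 34 members that the naming rule chose gave 508 results with the same direction and the same side of the threshold, 22 that lost it, 19 that gained it and 52 that did not keep their sign. The last were all in genes not called over all libraries. They include Trim71 without NC1, which fell to 0, while the others changed sign. Members named beyond the rule are not in these counts. The cause was not tested. No member passed after adjustment under any of the 18. The count of members called higher, 3, became 1 with quantile normalization, 8 with Xist as a covariate and 6 with the replicate number as a block, and ran from 2 to 7 with a library left out, the 7 coming without NC1. Over all genes the count called higher, 343, became 336 with quantile normalization, 814 with Xist, 351 with the block and 1495 without NC1. The count of members called lower, 1, became 0 with a pseudocount of 5, edgeR without a filter, Xist as a covariate or the block, 2 with quantile normalization, and ran from 0 to 2 with a library left out. Over all genes the count called lower, 272, became 170, 642, 502, 247 and 357 in these settings, in the same order. Members not called over all libraries but called in such settings included Trim2, Trim27, Trim55 and Trim68 (higher, without NC1), Trim30a (higher) and Trim23 (lower) without NC3, Trim30d without NC2, Trim27 with median-of-ratios scaling and Trim66 (lower) with quantile normalization. With a library left out, the median log2 fold change of the 38 members ran from -0.093 (without NC3) to 0.47 (without NC1), and that of the innate immune members from 0.44 to 0.88, while over all 18 alternatives the latter reached 0.91 with a pseudocount of 0.1. Counts of all genes called moved by over 1.5 times, from 615 to 1049 with edgeR without a filter, 1304 with DESeq2, 1316 with Xist, and, with a library left out, to 1990 without NC1, 1205 without NC2, 385 without HC1 and 376 without HC2.

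The deviations of libraries with equal replicate numbers from their group means correlated at -0.349, 0.503 and -0.044. These values do not show that replicate numbers pair the libraries. They cannot exclude it either, because NC3 and the difference in Xist also enter the deviations. With replicate numbers as a block, in a fit of 6 libraries that drops HC4, Trim5, Trim6, Trim21, Trim30c, Trim30d and Trim68 were called higher. This fit called 2.5% of all genes. Trim13 was not called (-0.57), Trim25 was at 0.002 and Trim3 at -0.001.

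Signs also changed for Trim55 with a pseudocount of 0.1 (0.87) and with Xist (0.031), for Trim59 with Xist (-0.015), and with a pseudocount of 5 for Trim2 (-0.048) and Trim59 (-0.021). Median-of-ratios scaling gave -0.063 for Trim2, -0.10 for Trim3, -0.011 for Trim41 and -0.035 for Trim59. Quantile normalization gave -0.40 for Trim2, -0.093 for Trim3, -0.12 for Trim34a and -0.23 for Trim59. With edgeR and a filter the values were -0.23 for Trim2, -0.13 for Trim3, -0.031 for Trim41 and -0.30 for Trim59, and without one -0.24 for Trim2, -0.14 for Trim3, -0.026 for Trim41, -0.001 for Trim56 and -0.30 for Trim59. DESeq2 gave -0.28 for Trim2, -0.17 for Trim3, -0.066 for Trim41, -0.006 for Trim56, -0.35 for Trim59 and -0.017 for Trim65. With a library left out, log2 fold changes ran from -0.019 to 0.69 for Trim14, -0.31 to 0.64 for Trim2, -0.55 to 0.024 for Trim24, -0.47 to 0.25 for Trim25, -0.39 to 0.36 for Trim3, -0.032 to 0.018 for Trim32, -0.66 to 0.004 for Trim36, -0.12 to 0.45 for Trim41, -0.99 to 1.29 for Trim55, -0.38 to 0.57 for Trim56, -0.66 to 0.80 for Trim59, -0.067 to 0.44 for Trim65, -0.091 to 0 for Trim71, -1.29 to 0.46 for Trim72 and -0.39 to 1.11 for Trim8.

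Depth limits the members under 1 RPM, which rest on few reads per library. Libraries with and without Xist are unequal in number between the groups, and NC3 is the only normocapnia library without it, so that in that part of the data NC3 and the condition cannot be told apart.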
